A study of Mus musculus with 4 samples.

Results

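Mitochondrial ribosomal proteins were represented by 72 genes, those whose symbol begins with Mrpl or Mrps followed by a number, out of 18091 genes with a signal on the array. By symbol, 44 belonged to the large subunit (Mrpl) and 28 to the small subunit (Mrps). Their signals were compared between insulinomas from RT2 mice given PBS (2 tumors) and from RT2 mice given sEphB4-Alb (2 tumors), a fusion of albumin with the extracellular part of the receptor EphB4 that blocks Ephrin-B2/EphB4 signaling. RT2 mice express the SV40 large T antigen from the insulin promoter, so that tumors start in the beta cells of the pancreatic islets. All 4 tumors came from Dll4+/+ mice, and mice (6 per group) were injected intraperitoneally 3 times a week from 10 weeks of age until harvest at 13.5 weeks, with PBS as vehicle or with sEphB4-Alb at 10 mg/kg. The sample labels name both CD1 and C57/BL6 as backgrounds, whereas the design text names C57/BL6 and the study's methods name CD1 for the trial of sEphB4-Alb in Dll4+/+ and Dll4+/- mice, and none of them ties a tumor to a mouse. The spread behind each p-value is therefore that between 2 tumors per group, which may not be separate animals.

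The mitochondrial ribosome translates the few messages of mitochondrial DNA, all of which encode subunits of the respiratory chain and ATP synthase. Its RNAs come from mitochondrial DNA, but every one of its proteins is encoded in the nucleus, made in the cytosol and imported. Some of these proteins have a bacterial counterpart and others occur only in mitochondria, and in beta cells the respiratory chain that depends on them couples glucose breakdown to insulin release.

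The 72 genes lay on 17 chromosomes, with the largest number, 10, on chromosome 11 and 0 on the X or Y chromosome. The study's groups differed in sex-linked transcripts: the normalized log2 signal of Xist, which coats the inactive X chromosome, was 6.46 and 6.24 with PBS and 8.21 and 9.16 with sEphB4-Alb. The Y-linked gene Ddx3y was at 8.84 and 9.41 against 6.47 and 7.16. The labels give no sex, and legends of the study describe mice given sEphB4-Alb or PBS as male, which these values of the sEphB4-Alb tumors go against. Sex and treatment cannot be told apart in these 4 tumors. The tumors expressed the insulin gene Ins2 throughout (normalized log2 signal 12.81 to 13.74), whereas 3 of 17 beta cell markers, Mafa, Slc2a2 and Pcsk1, were not above background on both arrays of either group. The tumors also differed in genes of the tissue around the islets. All 24 genes of acinar pancreas tested, which encode digestive enzymes and their helpers, had their highest signal in sEphB4-Alb tumor 2 and their lowest in PBS tumor 1, with median deviations from the gene's mean of -2.26, 0.29, -0.56 and 2.49 in PBS tumors 1 and 2 and sEphB4-Alb tumors 1 and 2. Of 15 macrophage genes tested (21 listed), 10 were higher in both sEphB4-Alb tumors than in either PBS tumor (66.7%, against 18.5% of all genes tested), with median deviations of -0.07, -0.22, 0.31 and 0.07. The part of macrophages in the members' values was not tested. Normalized values correlated less between PBS tumor 1 and the other tumors (Pearson's r = 0.946 to 0.955 across genes, which are not independent replicates) than among the other 3 (0.976 to 0.979).

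Nearly all of the genes were detected. A gene was tested where its raw signal exceeded a background limit, set from the dim genes of each array (131.1 to 143.6 units of signal), in both tumors of 1 group or more. This held for 68 of the 72 genes (94.4%), against 58.7% of all genes on the array, and 67 of the 68 were above background in every tumor. Mrpl39, a mitochondria-specific protein of the large subunit, was above it on 3 arrays, both of sEphB4-Alb tumors and 1 of PBS tumors. It was thus tested only through the group in which it was higher. The other 4 genes, Mrpl19, Mrpl21, Mrpl32 and Mrps14, had raw signals from 108.2 to 136.5 and were above background on 0 arrays, so no change is given for them.

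Raw signals of these genes differed mainly between arrays. The median raw signal of the 72 genes was 599.0 in PBS tumor 1, 866.2 in PBS tumor 2, 1002 in sEphB4-Alb tumor 1 and 1359 in sEphB4-Alb tumor 2. The brightest of the 4 arrays was sEphB4-Alb tumor 2 for 68 of 68 genes tested (77.9% of all genes tested), and the dimmest was PBS tumor 1 for 63 (82.9%). The same order was thus common to most genes of the array, and the values given next are log2 signals after background correction and quantile normalization, which gives all 4 arrays the same distribution of signals. These are bulk tumors, in which fewer cells of a type and less RNA per cell cannot be told apart.

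After normalization the mitochondrial ribosomal protein genes differed little in mean between the groups. No gene passed an unadjusted p of 0.05 in limma in either direction (0 of 68 higher, against 3.75% of the 10626 genes tested, and 0 lower, against 2.68%, together 6.44%). The log2 fold changes ran from -0.38 for Mrpl9 to 0.40 for Mrpl52, a 1.32-fold difference at most, so that 0 members passed the study's thresholds of 2-fold and p of 0.05 (1.11% of genes tested did), and 44 of the 68 (64.7%) were within 0.2 of 0, against 54.7% of all genes tested. At an adjusted p of 0.05, 0 genes passed here and 0 (0% of genes tested) on the whole array, and the adjusted p of the members lay between 0.744 and 0.999. The lowest unadjusted p was 0.0599, for Mrps24. The 95% confidence interval of the change lay inside 2-fold in both directions for 65 of 68 genes (95.6%), against 79.4% of all genes tested. The intervals of Mrpl9, Mrpl12 and Mrps11 reached beyond a 2-fold lower level.

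**Figure D1:**
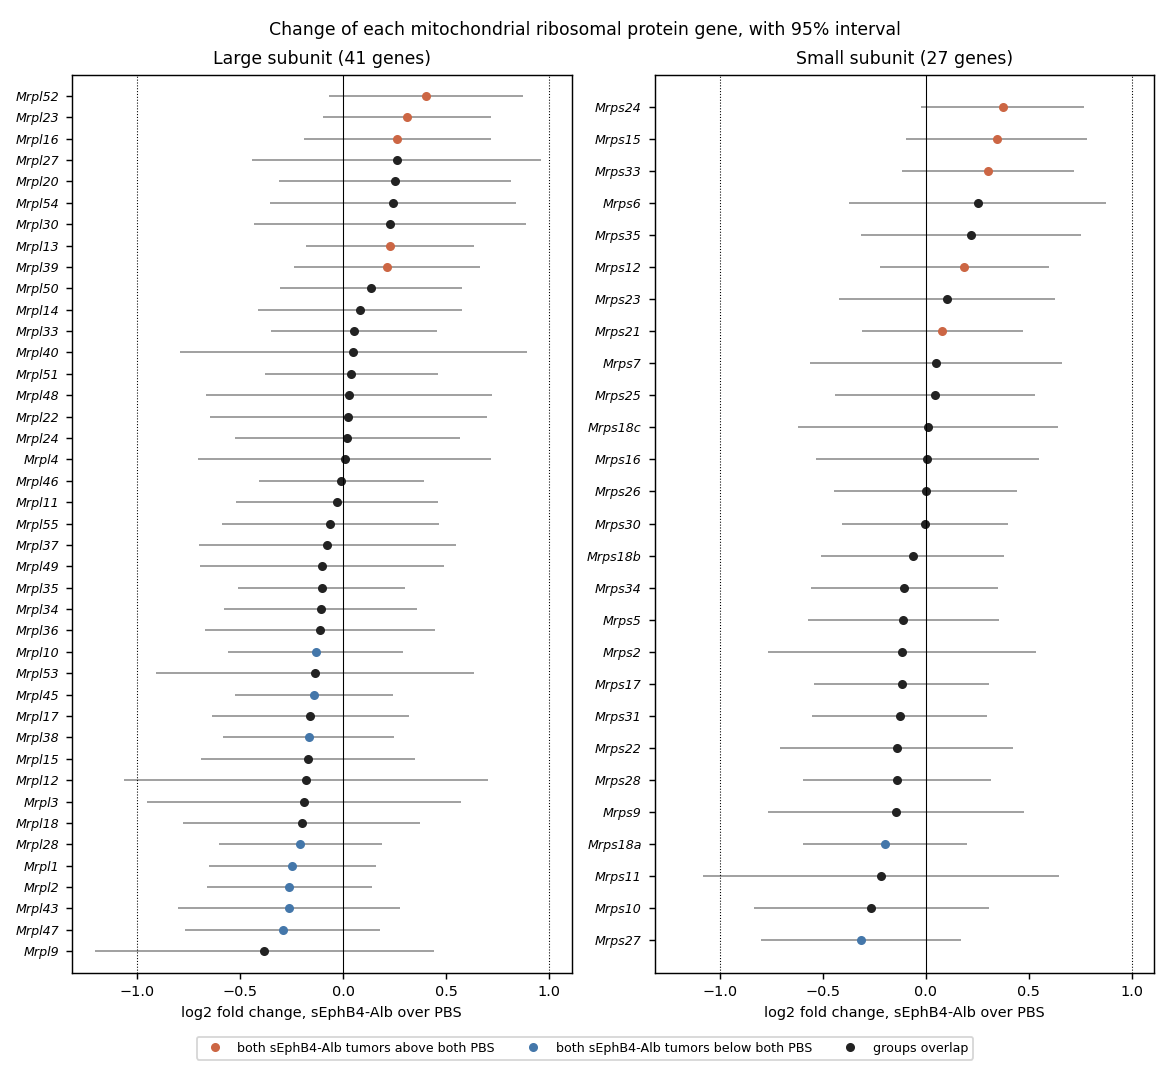
Log2 fold change of each of the 68 genes tested (x axis, sEphB4-Alb over PBS, after quantile normalization) by gene (y axis), for the large and the small subunit; points are differences of group means (n = 2 tumors per group), bars are 95% confidence intervals from limma, and dotted lines mark 2-fold. Every point lies between -0.38 and 0.40, and 65 of the 68 intervals stay inside the dotted lines; without normalization between arrays all 68 points lie above 0.

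The direction of the group as a whole depended on how the arrays were scaled. The median log2 fold change of the 68 genes was -0.05 after quantile normalization (median of all genes tested -0.01), 0.38 after median scaling (all genes 0.25) and 0.71 without normalization between arrays (all genes 0.58). Set against the median gene, the members were thus at -0.03, 0.13 and 0.13. By sign, 30 of the 68 were above 0 and 38 below after quantile normalization, whereas 67 were above 0 after median scaling and 68 without normalization. After median scaling 6 members had an unadjusted p under 0.05, all of them higher (8.82%, against 8.04% of genes tested in that direction), namely Mrpl30, Mrpl52, Mrps15, Mrps24, Mrps33 and Mrps35. Without normalization 20 did (29.4%, against 18.2%). In what follows, higher and lower refer to quantile-normalized values unless another scaling is named.

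**Figure D2:**
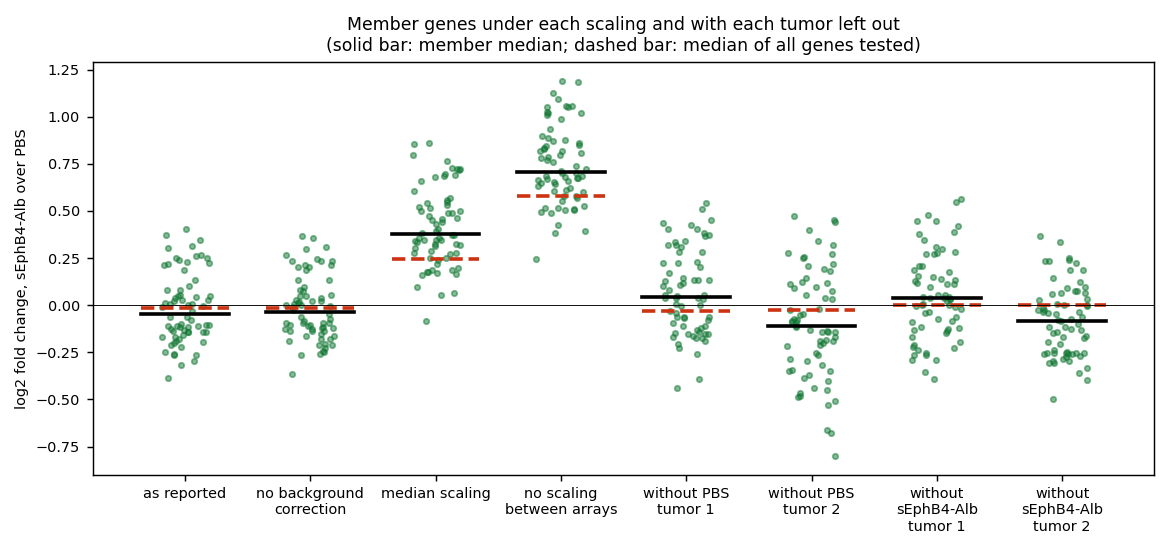
Log2 fold changes of the mitochondrial ribosomal protein genes (y axis, sEphB4-Alb over PBS; 1 point per gene) under each scaling and with each tumor left out (x axis); solid bars are the medians of these genes and dashed bars the medians of all genes tested. The solid bar moves from -0.05 as reported to 0.38 after median scaling and 0.71 without scaling between arrays, and the dashed bar moves with it, from -0.01 to 0.25 and 0.58.

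Differences between tumors of the same group were as large as those between groups. The median absolute gap was 0.24 between the PBS tumors and 0.17 between the sEphB4-Alb tumors, beside a median absolute change of 0.14 between groups. The gap between PBS tumors 1 and 2 exceeded the change between groups in 44 of the 68 genes (64.7%), against 63.2% of all genes tested. A gap between single tumors varies more than a difference of group means, so this share is no test. PBS tumor 1 had the highest normalized signal in 31 genes (45.6%, against 35.6% of all genes tested) and sEphB4-Alb tumor 2 in 22 (32.4%, against 19.1%). PBS tumor 2 was highest in 12 (17.6%, against 24.2%) and sEphB4-Alb tumor 1 in 3 (4.41%, against 21.1%). The 2 tumors in which these genes most often peaked therefore belonged to different groups. Within the treated group, 52 of the 68 genes (76.5%) were higher in sEphB4-Alb tumor 2 than in sEphB4-Alb tumor 1, against 49.4% of all genes tested. The gap between the PBS tumors was over 0.5 in 14 genes (20.6%, against 25.1% of all genes tested), with PBS tumor 1 the higher in 12 of them and PBS tumor 2 in Mrps2 and Mrps9. The gap between the sEphB4-Alb tumors was over 0.5 in 3 (4.41%, against 9.03%), Mrpl27, Mrpl37 and Mrps18c, all higher in sEphB4-Alb tumor 2, the tumor with the highest acinar signals. The part of acinar tissue in the members' values was not tested.

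**Figure D3:**
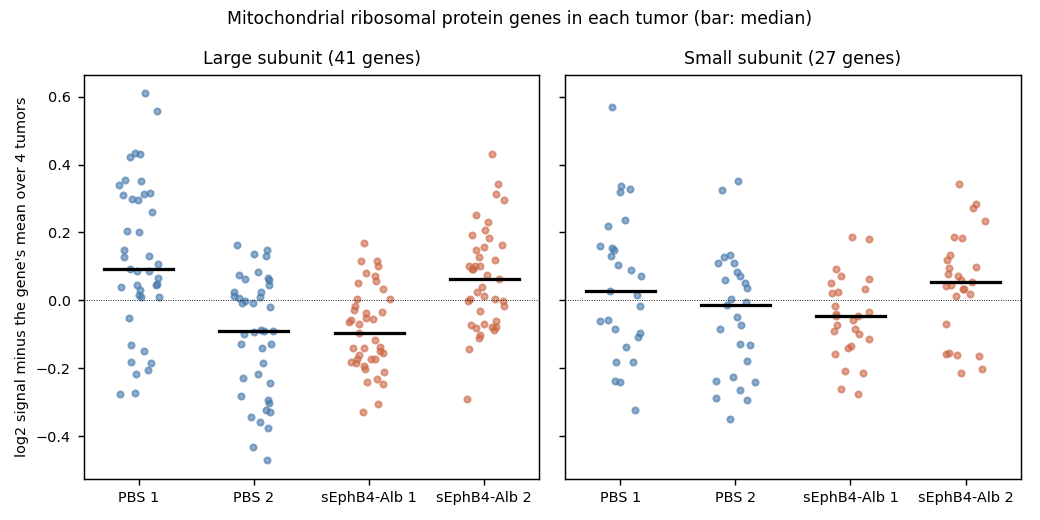
Normalized log2 signal of each gene minus its own mean over the 4 tumors (y axis) in each tumor (x axis), for 41 large and 27 small subunit genes; points are genes and bars are medians. The bars of the large subunit stand at 0.09 and 0.06 in PBS tumor 1 and sEphB4-Alb tumor 2 and at -0.09 and -0.10 in the other 2 tumors.

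Of all the members, 3 stood far above the rest in PBS tumor 1 alone. Mrpl12, the large subunit protein of the flexible stalk that recruits elongation factors, was at 12.51 and 11.58 with PBS and at 11.78 and 11.96 with sEphB4-Alb (normalized log2 signal, tumor 1 first). Mrps11, which lines the platform of the small subunit, was at 10.71 and 9.80 against 10.09 and 9.98. Mrpl9, in bacteria an elongated protein at the base of a large subunit stalk, was at 10.71 and 9.87 against 9.80 and 10.02. In each of them PBS tumor 1 was more than 0.5 above the next tumor (4.41% of members, against 5.69% of all genes tested) while the other 3 tumors lay closer together, and the groups overlapped. Genes of proliferation, such as those of mitosis and DNA replication, were also highest in PBS tumor 1, in 11 of 15 tested (20 listed). This was 73.3%, against 35.6% of all genes tested. Their median deviations from the gene's mean were 0.44, -0.18, -0.15 and 0.00 in PBS tumors 1 and 2 and sEphB4-Alb tumors 1 and 2. Red blood cell genes had their highest signal in PBS tumor 1 in 5 of 6 tested, of 11 listed (83.3%, against 35.6%). The part of these differences between tumors in the members' values was not tested.

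In 20 of the 68 genes the groups did not overlap. In 10 the sEphB4-Alb tumors were both higher than either PBS tumor (14.7%, against 18.5% of all genes tested) and in 10 they were both lower (14.7%, against 20.7%). Both shares were below those of the array as a whole. The other 48 overlapped, with log2 fold changes from -0.38 for Mrpl9 to 0.26 for Mrpl27. Among genes above background on all 4 arrays, which leaves out Mrpl39, 9 members were apart higher (13.4%, against 14.8%). In the same setting 10 were apart lower (14.9%, against 23.3%). With 2 tumors against 2, an exact permutation test (two-sided) of a single gene cannot give a p below 0.333, so this order alone is no test.

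In the large subunit, 5 genes were apart with higher values in the sEphB4-Alb tumors (12.2%, against 18.5% of all genes tested). Mrpl52, a mitochondria-specific protein, was at 8.46 and 8.61 with PBS and at 8.79 and 9.08 with sEphB4-Alb (normalized log2 signal). Both treated tumors were above both controls, for a log2 fold change of 0.40 with a standard error of 0.18 (95% confidence interval -0.07 to 0.87; limma, adjusted p = 0.746). Mrpl23, whose bacterial counterpart sits at the exit of the peptide tunnel, was at 11.62 and 11.67 against 11.88 and 12.03, a change of 0.31 with an interval from -0.10 to 0.72. Mrpl16, whose bacterial counterpart helps to seat the transfer RNA near the catalytic centre, was at 7.28 and 7.56 against 7.66 and 7.70, and its change of 0.26 was smaller than the gap between the PBS tumors. Mrpl13 had a change of 0.23. Mrpl39, which passed the background limit in both tumors of the treated group only, had raw signals of 127.2 to 184.3 and a change of 0.21. The change of Mrpl39 relative to the median gene turned to -0.08 after median scaling.

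Another 8 large subunit genes were apart with lower values in the treated tumors (19.5%, against 20.7% of all genes tested). Mrpl47, a relative of bacterial protein L29 near the tunnel exit, was at 9.35 and 9.02 with PBS and at 8.89 in both treated tumors, a log2 fold change of -0.29 with a standard error of 0.18 (95% confidence interval -0.77 to 0.18; limma, adjusted p = 0.764). Mrpl2, a protein close to the peptidyl transferase centre, was at 9.93 in both PBS tumors and at 9.59 and 9.73 in the treated tumors, a change of -0.26. Mrpl43, a mitochondria-specific protein, was at 10.04 and 9.59 against 9.52 and 9.58. Its PBS tumor 2 and sEphB4-Alb tumor 2 were nearly equal, and PBS tumor 1 carried the difference. Mrpl1, of the stalk through which spent transfer RNA leaves in bacteria, had a change of -0.25 and Mrpl28 of -0.21. None of the 5 was below 0 after median scaling (0.18 to 0.28), which moved the median gene up by 0.25. Relative to the median gene, Mrpl28 then stood at 0.03, whereas Mrpl47 (-0.07), Mrpl2 (-0.05), Mrpl43 (-0.06) and Mrpl1 (-0.06) stayed below it. The other 3 genes, Mrpl10, Mrpl38 and Mrpl45, had changes of -0.13, -0.17 and -0.14. After median scaling they stood at 0.34, 0.30 and -0.09. Mrpl45, with raw signals of 141.1 to 172.5, was then the only member below 0.

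The small subunit had 5 genes apart with higher values (18.5%, against 18.5% of all genes tested). Mrps24, the counterpart of bacterial S3 at the entry of the messenger RNA channel, was at 11.81 and 11.92 with PBS and at 12.24 in both treated tumors. The groups were well apart, with a log2 fold change of 0.37 and a standard error of 0.15 (95% confidence interval -0.02 to 0.77; limma, adjusted p = 0.744). Mrps15 was at 7.38 and 7.26 against 7.55 and 7.78, a change of 0.34, and Mrps33, a mitochondria-specific protein, at 11.54 and 11.36 against 11.78 and 11.72, a change of 0.30. Mrps12, which in bacteria lines the decoding centre and whose counterpart there is the site of streptomycin resistance, was at 12.27 and 12.45 against 12.55 in both treated tumors. Mrps21 differed by 0.08 only. Of these 5 genes, 4 have a bacterial counterpart, Mrps33 being the exception.

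Lower values with groups apart were found in 2 genes with a small subunit symbol (7.41%, against 20.7% of all genes tested). Mrps27, a mitochondria-specific protein with the repeats of RNA-binding pentatricopeptide proteins, was at 8.17 and 7.83 with PBS and at 7.73 and 7.64 with sEphB4-Alb. PBS tumor 1 was again the highest, and the log2 fold change of -0.32 had a 95% confidence interval from -0.80 to 0.17 (adjusted p = 0.763 from limma). Mrps18a was at 10.32 and 10.34 against 10.19 and 10.07, a change of -0.20. After median scaling, which moved the median gene up by 0.25, Mrps27 stood at 0.07 and Mrps18a at 0.25. Relative to the median gene, Mrps27 was then at -0.18 and Mrps18a at 0.00.

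**Figure D4:**
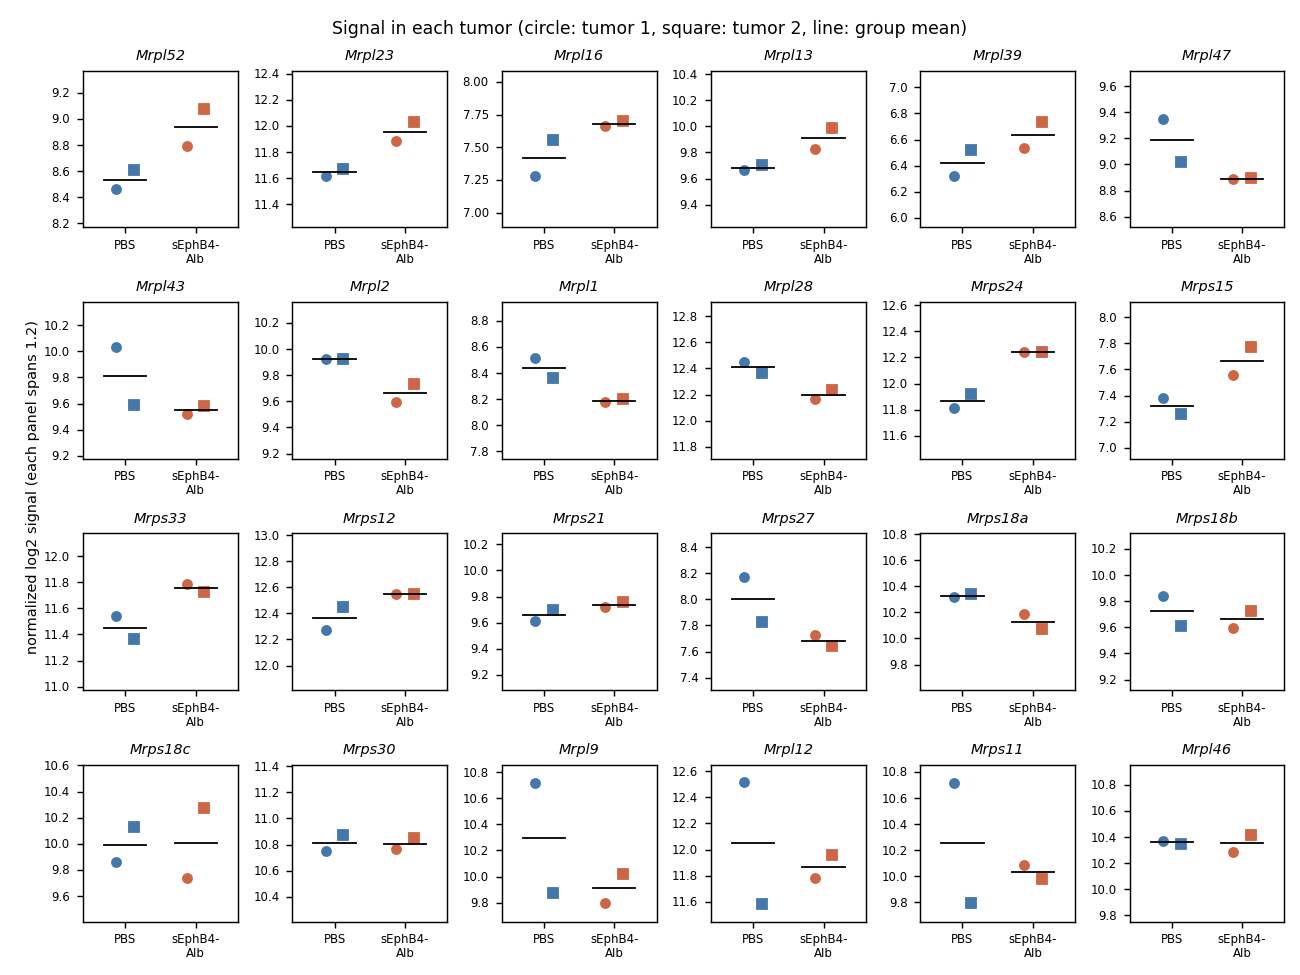
Normalized log2 signal (y axis, each panel spanning 1.2 log2 units) of 24 genes in each tumor; circles are tumor 1, squares tumor 2 and lines group means. The squares and circles of the treated group clear both PBS tumors in Mrpl52 and Mrps24, lie below both in Mrpl47 and Mrps27, and lie far below PBS tumor 1, but not below PBS tumor 2, in Mrpl12 and Mrps11.

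Mrps18a, Mrps18b and Mrps18c are related genes with 1 bacterial counterpart, S18, and their proteins occupy different sites: those of Mrps18b and Mrps18c are in the small subunit, whereas the protein of Mrps18a lies in the large subunit in structures of the mammalian mitochondrial ribosome. Mrps18b was at 9.84 and 9.61 in the PBS tumors against 9.60 and 9.73 in the sEphB4-Alb tumors. Mrps18c was at 9.86 and 10.13 against 9.74 and 10.27. Both overlapped between groups, with log2 fold changes of -0.06 and 0.01, and only Mrps18a of the 3 had groups apart. Mrps30, whose protein also lies in the large subunit despite its symbol, was at 10.75 and 10.87 against 10.76 and 10.85, a change of 0.00 with an interval from -0.41 to 0.40.

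Large and small subunit were compared as groups of genes without a test, since genes are not replicates of a treatment. The median log2 fold change was -0.06 over 41 large and 0.00 over 27 small subunit genes after quantile normalization. After median scaling it was 0.36 and 0.41, or 0.11 and 0.16 relative to the median gene. The difference of the subunits, large minus small, was therefore -0.06 after quantile normalization and -0.05 after median scaling. In single tumors the large subunit stood 0.07 above the small subunit in PBS tumor 1, 0.08 below it in PBS tumor 2, 0.05 below it in sEphB4-Alb tumor 1 and 0.01 above it in sEphB4-Alb tumor 2. The difference thus changed sign within each group, and it was 0.02 without PBS tumor 1. Counting Mrps18a and Mrps30 in the large subunit, where structures place them, left it at -0.06.

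Within the subunits, proteins inherited from the bacterial ribosome and those particular to mitochondria were looked at apart. The median log2 fold change was -0.10 over the 27 large subunit genes with a bacterial counterpart and 0.01 over the 14 mitochondria-specific ones. It was 0.01 over the 15 small subunit genes with a bacterial counterpart and -0.03 over the 10 mitochondria-specific ones. Mrps18b, although related to bacterial S18, was counted among these 10. After median scaling the same medians were 0.35, 0.37, 0.45 and 0.40, or 0.10, 0.12, 0.20 and 0.15 relative to the median gene. In the same order, 3 (11.1%), 2 (14.3%), 4 (26.7%) and 1 (10.0%) of these genes were apart with higher values (18.5% of all genes tested) and 5 (18.5%), 3 (21.4%), 0 and 1 (10.0%) with lower values (20.7%).

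Sequences before the start of 4 members are shown because, among genes whose groups did not overlap, Mrpl52 and Mrps24 had the largest changes toward higher and Mrps27 toward lower values, and Mrps11 shares its promoter region with another member. Windows of 300 bases (250 before to 50 after the start of the gene) are from RefSeq, build GRCm38.p6, 5′ to 3′ on the strand of the gene, and 63 of the 72 members had one. Capitals mark the letters of motifs searched on both strands, CCGGAAG of ETS factors, AAGATGGCG of YY1 and TATAAA of the TATA box.
Mrpl52, chr14:54426659-54426958, plus strand: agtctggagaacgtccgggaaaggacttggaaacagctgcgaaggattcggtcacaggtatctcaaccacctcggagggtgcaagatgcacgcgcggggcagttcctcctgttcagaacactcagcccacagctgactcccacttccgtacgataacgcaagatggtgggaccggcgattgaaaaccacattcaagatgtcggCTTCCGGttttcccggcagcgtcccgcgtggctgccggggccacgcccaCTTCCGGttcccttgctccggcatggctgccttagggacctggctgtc
Mrps24, chr11:5707652-5707951, minus strand: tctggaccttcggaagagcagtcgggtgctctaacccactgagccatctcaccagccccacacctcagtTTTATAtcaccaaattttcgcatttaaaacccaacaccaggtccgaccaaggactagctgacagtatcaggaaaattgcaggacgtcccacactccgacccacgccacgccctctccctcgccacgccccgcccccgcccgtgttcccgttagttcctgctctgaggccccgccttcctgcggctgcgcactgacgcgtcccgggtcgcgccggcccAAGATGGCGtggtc
Mrps27, chr13:99344536-99344835, plus strand: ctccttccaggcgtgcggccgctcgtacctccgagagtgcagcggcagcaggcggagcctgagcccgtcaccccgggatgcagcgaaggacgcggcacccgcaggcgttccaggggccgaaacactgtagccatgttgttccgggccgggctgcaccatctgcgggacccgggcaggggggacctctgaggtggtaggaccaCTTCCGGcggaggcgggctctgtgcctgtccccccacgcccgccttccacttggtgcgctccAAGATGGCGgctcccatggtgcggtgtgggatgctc
Mrps11, chr7:78782881-78783180, plus strand: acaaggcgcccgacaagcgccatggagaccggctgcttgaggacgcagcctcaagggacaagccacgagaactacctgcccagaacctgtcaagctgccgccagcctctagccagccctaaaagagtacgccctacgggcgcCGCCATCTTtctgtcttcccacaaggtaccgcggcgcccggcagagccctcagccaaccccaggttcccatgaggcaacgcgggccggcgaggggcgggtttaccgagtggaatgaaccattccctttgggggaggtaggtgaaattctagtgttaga

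Mrpl52 held the ETS letters at 2 places and Mrps27 those of ETS and of YY1. Mrps24 held those of the TATA box and, further downstream, of YY1, and Mrps11 those of YY1. ETS letters were thus present in a gene with a higher and in a gene with a lower value. Over all members with a window, ETS letters occurred in 23 of 63 (36.5%), against 11.9% of the windows of 17492 protein-coding genes. The letters of NRF1 (GCGCA, any base, then GCGC), a regulator of nuclear genes for mitochondria, occurred in 11 (17.5%, against 6.6%) and those of YY1 in 7 (11.1%, against 1.94%). In contrast, the letters CACGTG, bound by Myc and related factors, occurred in 5 (7.94%, against 7.9%) and TATAAA in 4 (6.35%, against 13.3%). No motifs overlapped in these windows (0 pairs). Mrpl9 and Mrpl12, which stood apart in PBS tumor 1, held the NRF1 letters, and Mrps11, the third of these genes, did not. The other tested members with NRF1 letters were mixed. Mrpl30 and Mrps26 were highest in PBS tumor 1, whereas Mrpl14, Mrpl39 and Mrps21 were lowest there. PBS tumor 2 was highest in Mrpl14, Mrpl17, Mrpl45 and Mrps9. A match describes the letters of the window and not a bound site.

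A start facing that of another gene within 500 bases was found for 22 of the 63 members with a window, which formed 21 pairs. In 12 pairs both genes were tested, and their changes had the same sign in 6 and opposite signs in 6. Mrpl46 and Mrps11, a large and a small subunit gene, start 42 bases apart in opposite directions. Mrpl46 was at 10.37 and 10.35 in the PBS tumors against 10.29 and 10.42 in the sEphB4-Alb tumors, so that the excess of Mrps11 in PBS tumor 1 was not seen in its neighbor. Mrps12 and Sars2, the mitochondrial seryl-tRNA synthetase, start 147 bases apart, and Sars2 was at 7.98 and 7.20 against 7.25 and 7.58. Sars2 peaked in PBS tumor 1, the tumor in which Mrps12 was lowest. Mrpl47 and Ndufb5, a subunit of respiratory complex I, start 308 bases apart, and Ndufb5 was at 7.80 and 8.25 against 8.39 and 8.78, a log2 fold change of 0.56 where Mrpl47 had -0.29. The groups were apart in both genes, in opposite directions. Mrpl2 and Klc4, which start 141 bases apart, both had lower values with groups apart, with log2 fold changes of -0.26 and -0.25. Mrpl18 and Tcp1, which start 238 bases apart, had changes of -0.20 and -0.13.

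Some proteins of the mitochondrial ribosome have other symbols. Of 7 such genes 6 were tested and 0 had an unadjusted p under 0.05 in limma (6.44% of all genes tested did). Dap3, a GTP-binding protein of the small subunit first known from cell death, had a log2 fold change of -0.22, Ptcd3, a pentatricopeptide protein, of -0.14, and Aurkaip1, a small subunit protein, of -0.06. Mrp63 of the large subunit had -0.19, Ict1, a peptidyl-tRNA hydrolase built into the large subunit, 0.03, and Chchd1 of the small subunit 0.12. Chchd1 alone of the 6 was apart with higher values (16.7%, against 18.5% of all genes tested), and 0 were apart with lower values (against 20.7%). Gadd45gip1 was above background on 1 array and was not tested. Together the 6 genes had a median of -0.10 after quantile normalization and 0.34 after median scaling, or 0.09 relative to the median gene.

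The other genes of mitochondrial translation were taken as 65 listed genes, of which 52 were on the array and 43 were tested. Their median log2 fold change was -0.16 after quantile normalization and 0.21 after median scaling, or -0.15 and -0.04 relative to the median gene. Of them 2, both lower, had an unadjusted p under 0.05 (2.68% of all genes tested), and groups were apart in 6 with higher and 18 with lower values (14.0% and 41.9%, beside the 18.5% and 20.7% of all genes tested). After median scaling 0 of the 43 were lower and 4 higher at an unadjusted p under 0.05 (8.04% of genes tested were higher).

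Both genes belong to ribosome assembly. Dhx30, an RNA helicase of mitochondrial RNA granules, was at 11.29 and 11.21 with PBS and at 10.71 and 10.68 with sEphB4-Alb, with a log2 fold change of -0.56 (standard error 0.15, unadjusted p = 0.015, adjusted p = 0.744 from limma). Rnmtl1, a methyltransferase of the large ribosomal RNA, had a log2 fold change of -0.50 (unadjusted p = 0.043, adjusted p = 0.744). Neither passed the adjusted threshold. Nsun4, another ribosomal RNA methyltransferase, had the largest change in the opposite direction, 0.51 with an interval from -0.16 to 1.19. Over the 13 assembly genes tested the median was -0.19, with 6 apart lower (46.2%, against 20.7% of all genes tested) and 2 apart higher (15.4%, against 18.5%). After median scaling this median was 0.15, or -0.10 relative to the median gene.

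Translation factors were mixed, with a median of -0.15 over 9 genes (0.23 after median scaling, or -0.02 relative to the median gene). Mtrf1l, a release factor, had a log2 fold change of 0.41 and Gfm1, an elongation factor, of 0.33, whereas Mtrf1, a relative of the release factors, had -0.33. Mtrf1l and Gfm1 were the 2 genes apart with higher values (22.2%, against 18.5% of all genes tested). Another 3 were apart with lower values (33.3%, against 20.7%). None of the 9 had an unadjusted p under 0.05. Of 11 aminoacyl-tRNA synthetases, which charge the transfer RNAs, 7 were apart with lower values (63.6%, against 20.7% of all genes tested) and 1 with higher values (9.09%, against 18.5%). Fars2, for phenylalanine, had -0.33, Vars2, for valine, -0.27, and Nars2, for asparagine, 0.34, and 0 of the 11 had an unadjusted p under 0.05. The median of the synthetases was -0.17, and 0.21 after median scaling, or -0.04 relative to the median gene.

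Regulators of these nuclear genes were also measured. Nrf1 was at 10.77 and 9.96 with PBS and at 9.45 and 9.74 with sEphB4-Alb, a log2 fold change of -0.77 (standard error 0.31, adjusted p = 0.744 from limma). Its groups were apart, and most of the difference lay in PBS tumor 1. Polrmt, the mitochondrial RNA polymerase, had -0.52, and Ppargc1a, a coactivator of mitochondrial genes, 0.41 with groups overlapping. Tfam, which packs mitochondrial DNA, was at 0.00. Yy1 and Myc were above background on 0 arrays, and 0 of the 10 genes tested had an unadjusted p under 0.05.

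**Figure D5:**
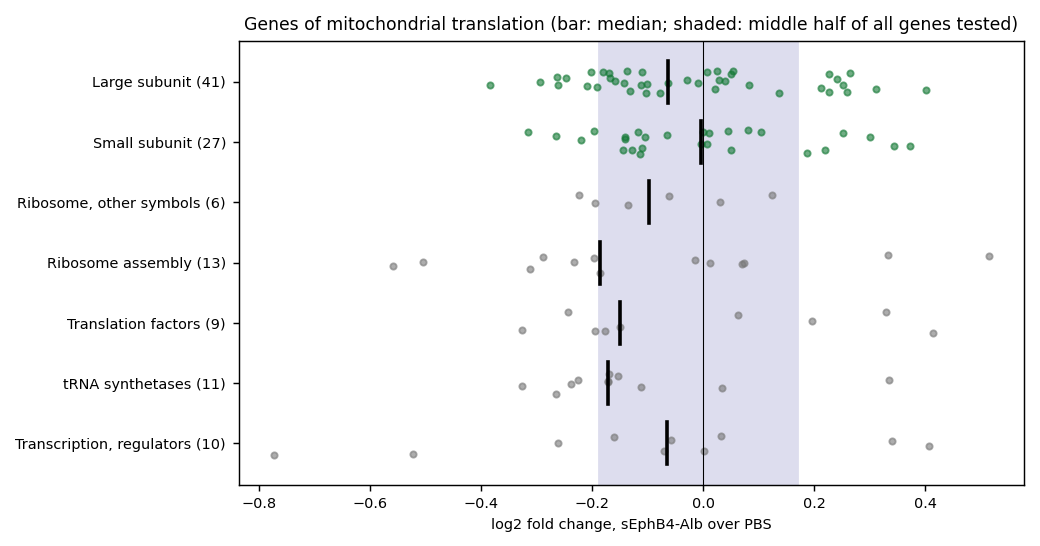
Log2 fold change (x axis, sEphB4-Alb over PBS, after quantile normalization) of the genes of each group of mitochondrial translation (y axis, number of genes tested in brackets); points are genes, bars are medians and the shaded band spans the lower to the upper quartile of all genes tested, -0.19 to 0.17. All medians lie inside the band. After median scaling, which moved the median gene to 0.25, those of the 7 groups lie between 0.15 and 0.41. Relative to the median gene they then lie between -0.10 and 0.16.

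Next to nuclear-encoded subunits of oxidative phosphorylation, none of which the mitochondrial ribosome makes, and the ribosomal proteins of the cytosol, the mitochondrial ribosomal proteins were intermediate. The median log2 fold change was 0.12 over 63 oxidative phosphorylation genes, -0.05 over the 68 members and -0.15 over 52 cytosolic ribosomal protein genes. After median scaling these medians were 0.56, 0.38 and 0.24, or 0.31, 0.13 and -0.01 relative to the median gene. Groups were apart with higher values in 25 (39.7%), 10 (14.7%) and 5 (9.62%) genes of these lists, against 18.5% of all genes tested. They were apart with lower values in 5 (7.94%), 10 (14.7%) and 21 (40.4%), against 20.7%. The difference between the lists was not tested.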

How the data were processed

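Each of 4 insulinomas was measured on 1 Illumina MouseRef-8 v2.0 BeadChip. Per array, the authors deposited a linear intensity per gene symbol, without subtraction of background or scaling (lowest signals 92.1 to 100.4, medians 135.5 to 168.7). The authors' software was not stated in the sources used here. Another 8 value columns, which could not be matched to a sample by name, were left unused.

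Background was corrected by normexp (offset 50), and values were quantile normalized and log2 transformed. Groups were compared by limma 3.58.1 (lmFit, eBayes; R 4.3.3) on 2 residual degrees of freedom, and p-values were adjusted by Benjamini-Hochberg over all genes tested. The background limit was the mode of an array's signals plus the one-sided 95% point of a normal distribution with the spread below the mode. Several smoothing widths for the mode were tried after the data were seen, and the narrower was kept. Steps were tested on simulated data. Subunit was taken from the symbol, and names, chromosomes and promoters from RefSeq tables of GRCm38.p6. The number of arrays limits the precision.

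Genes named were, per subunit and direction, the 5 members with the largest change among those whose groups did not overlap, with Mrps18a, Mrps18b, Mrps18c and Mrps30, all ribosome proteins with other symbols, and the 3 largest changes of each list. Mrpl9, Mrpl12, Mrps11, Mrpl46, Mrpl18, neighbors with facing starts, Tfam, the markers and further members given beside a count were named after their values were seen. Members and lists were chosen with earlier results of these data known. Alternatives were the background correction, the scaling, the filter, the variance model, a block for the replicate number, arrays left out in turn, other memberships, a fold threshold of 1.5 and the Mann-Whitney-Wilcoxon test. Probe sequences were not used, so whether a probe also reads a pseudogene of a member was not tested. Figures were drawn with matplotlib 3.10.9.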

Additional observations from a re-analysis of the deposited data

How the results depend on the processing

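On the scale of the report, the 9 named members with a change below 0 turned positive after median scaling and, second, with no normalization: 0.18 and 0.51 for Mrpl47, 0.19 and 0.52 for Mrpl43, 0.20 and 0.53 for Mrpl2, 0.19 and 0.52 for Mrpl1, 0.28 and 0.61 for Mrpl28, 0.065 and 0.40 for Mrps27, 0.25 and 0.58 for Mrps18a, 0.39 and 0.72 for Mrps18b and 0.46 and 0.79 for Mrps30. These scalings moved the median gene by 0.25 and 0.58. Relative to it, the same 2 settings turned the sign of Mrpl39 (-0.08), Mrpl28 (0.03), Mrps18a (0.00) and Mrps18b (0.15). Mrpl47 (-0.07), Mrpl43 (-0.06), Mrpl2 (-0.05), Mrpl1 (-0.06) and Mrps27 (-0.18) stayed below the median gene, and Mrps30 (0.21) stayed above it. Of the 68 members, 54 were above the median gene. The median of the members was 0.38 and 0.71, or 0.13 relative to the median gene in both. Members with an unadjusted p under 0.05 and a higher value numbered 6 and 20 (8.04% and 18.2% of all genes tested). Members apart numbered 31 and 55 higher (all genes 36.7% and 73.6%) and 1 and 0 lower (6.8% and 0.48%), and 11 members (16.2%, against 10.3%) passed 2-fold with p under 0.05 without normalization.

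Mrps24 alone was called higher without background correction (1 member) and without a filter on dim genes (1), and 1 member higher and 1 lower, Mrps24 and Mrpl45, without moderation. With each array left out, the median of the members ran from -0.11 to 0.04, relative to the median gene from -0.089 to 0.075, and large minus small from -0.060 to 0.017. Members at p under 0.05 then numbered 0 to 2 higher (all genes 1.96% to 10.5%; 2, Mrpl30 and Mrpl40, without PBS tumor 1) and 0 to 6 lower (0.605% to 12.6%). The 6 (8.82%, against 12.6%), Mrpl9, Mrpl12, Mrpl43, Mrpl47, Mrps11 and Mrps27, were those without PBS tumor 2, beside 1 higher, Mrps24. There PBS tumor 1, in which Mrpl9, Mrpl12 and Mrps11 stood apart, was the whole PBS group, assumed to vary like the treated tumors. Members apart numbered 11 to 30 higher (all genes 30.6% to 39.4%) and 14 to 34 lower (29.4% to 43.7%), fewer tumors making overlap less likely. Of 20 named members 17 kept their direction, and 13 moved by over 1.5 times, such as Mrpl52 (0.25 to 0.55), Mrpl47 (-0.45 to -0.13), Mrpl43 (-0.49 to -0.043) and Mrps27 (-0.48 to -0.15). Mrps18b ran from -0.18 to 0.049, Mrps18c from -0.26 to 0.28 and Mrps30 from -0.061 to 0.055.

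Genes of the whole array over 2-fold with p under 0.05 numbered 118 as reported, 73 without background correction, 300 after median scaling, 1095 without normalization, 40 without moderation, 131 to 475 with each array left out, 390 at 1.5-fold and 0 by the Mann-Whitney-Wilcoxon test, whose smallest p here is 0.333. At an adjusted p under 0.05, 1 gene passed without moderation. Replicate numbers were taken from the sample titles and treated as names only. Deviations of same-numbered tumors correlated at 0.04 across genes and 0.16 across members. With 2 tumors per group this cannot show whether the numbers stand for a pairing. With the replicate number as a block 0 members were called, and acinar genes with a higher value at p under 0.05 numbered 23 of 24 in place of 1. With the wider smoothing for the background limit, added after the data were seen, 9668 genes were tested, again with 68 members, 0 of them called. The other deposited value table was not run, since its columns match no sample. The cause of these changes was not tested. With 2 tumors per group, changes of the size seen here could not be told from 0.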
